A study of Danio rerio with 2 samples.

Results

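The genes of the mitochondrial ribosome were examined for chromatin accessibility in zebrafish hearts with and without the heart of stone (*hos*) mutation. Members were all genes assigned to an accessible region whose symbol starts with *mrpl* or *mrps* followed by a digit, the symbols of the large and the small subunit of this ribosome. This gave 70 genes, 43 of the large and 27 of the small subunit, among 22038 genes with an assigned region. Accessibility was read out by ATAC-seq, whose transposase inserts sequencing adapters into open DNA. There was 1 library of *hos* mutant hearts and 1 of sibling hearts, labelled wild type, both taken at 96 h post fertilization. Both carried the Tg(*myl7*:GFP) background, in which a heart muscle promoter drives green fluorescent protein, and the labels speak of 60 dissected hearts without saying whether that is per library. The series title names the SWI/SNF subunit Smarce1, a part of a complex that moves nucleosomes, as the protein under study. Because each genotype had a single pooled library, no replicate check was possible and no p-value is given anywhere. Intervals given with a fold are exact binomial 95% intervals on the tags behind it and cover counting error only.

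The mitochondrial ribosome translates the messenger RNAs of mitochondrial DNA, which code for membrane subunits of the respiratory chain and of ATP synthase. Its ribosomal RNAs come from mitochondrial DNA, whereas all its proteins are coded in the nucleus, made in the cytosol and imported. The small subunit decodes the messenger and the large subunit joins the amino acids, and both hold proteins inherited from bacteria beside proteins found only in mitochondria. Heart muscle depends on this machinery, and in humans variants of MRPL3, MRPL44 or MRPS22 can cause cardiomyopathy.

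Across all 41473 merged regions the mean signal, the authors' average read pileup over a region, was 52.7 in the mutant library and 47.0 in the sibling library. Of the 11 heart muscle marker genes, 8 had a promoter region, with a summed signal of 686 in the mutant and 437 in the sibling library. Of the 4 skeletal muscle markers, 2 had a promoter region, and these summed to 14.6 in the mutant and 56.6 in the sibling library, with *myod1* and *myog* lacking any. Blood markers had 1 promoter region of 3 genes (29.3 in the mutant and 19.0 in the sibling library). Epidermis markers had 2 of 3 (sums of 124 in the mutant and 103 in the sibling library), and liver and gut markers had 2 of 3 (74.9 in the mutant and 71.6 in the sibling library). The labels name cardiomyocytes, but whole hearts hold other cells as well, and the part of cell makeup in the results was not tested. A change in the share of cells with an open promoter and a change in openness per cell cannot be told apart in such pooled tissue.

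A promoter region was the region whose centre lay nearest to the gene start, within 1000 bp of it. Such a region was present for 67 of the 70 members, 41 of the large and 26 of the small subunit, and for 14591 genes in all. The 67 promoters rest on 66 regions, because *mrpl46* of the large and *mrps11* of the small subunit share one. Members lay on 22 chromosomes, with at most 7 on any one. RefSeq (assembly GRCz12tu) lists 75 zebrafish genes with such symbols, of which 69 were members, and *mrpl20*, *mrpl33*, *mrpl51* and *mrps17* had no assigned region in the table used. The region covered the annotated start in 61 members, and its centre was closer to the start of another gene in 13. The values are compared as log2 ratios of the mutant over the sibling signal after adding 1 to each, without further scaling, and folds are the plain ratios of the signals.

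Most mitochondrial ribosome promoters carried more signal in the mutant library, by a modest amount that was close to the shift of promoters in general. The log2 ratio was above 0 in 54 of the 67 members, below 0 in 12 and 0 in 1, against 77.3% above 0 among all gene promoters. The member median was 0.32 (95% interval of the median over genes 0.21 to 0.39), with quartiles at 0.07 and 0.49 and a range of -0.86 to 0.79. The median of all gene promoters was 0.25, which corresponds to a fold of 1.19. The signal of the members had a median of 55.1 in the mutant and 46.2 in the sibling library, against 56.2 in the mutant and 47.5 in the sibling library for all gene promoters. At least 1.5-fold higher signal in the mutant library was found in 7 members (10.4%), beside a background of 13.5% of all gene promoters. At least 1.5-fold lower signal was found in 2 members (2.99%), beside a background of 3.03%. None of the 67 passed 2-fold in either direction, where the background was 1.79% higher and 0.788% lower. Each of these member shares was close to or below its background. These counts depend on the scaling: with the median of all promoter regions set to 0, no member was at least 1.5-fold higher, 4 were at least 1.5-fold lower and 1 was at least 2-fold lower, and with ratios centred on the trend with signal strength, 1 was at least 1.5-fold higher and 3 were lower.

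**Figure D1:**
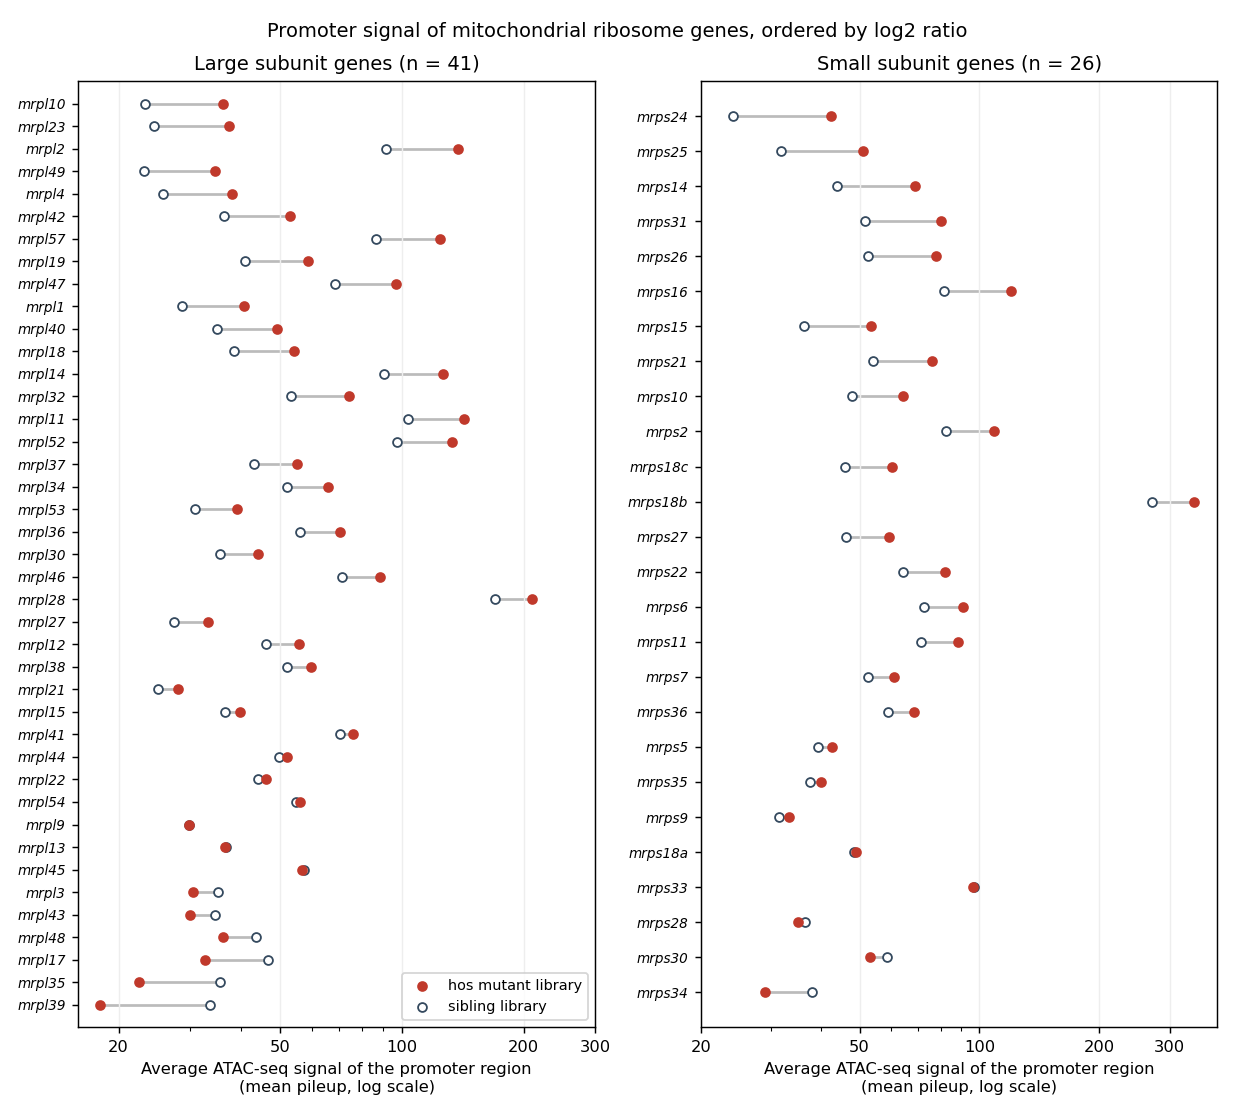
Promoter signal (mean read pileup, log axis) of each mitochondrial ribosome member with a promoter region, in the mutant library (filled red) and the sibling library (open). Most pairs sit close together with the mutant point higher, and of the 12 reversed pairs, led by *mrpl39* (18.0 in the mutant and 33.6 in the sibling library), 9 are among the 23 least open members.

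Counting error alone covered much of the spread. The interval of the fold lay above 1 in 30 members (44.8%; background 36.8%), below 1 in 1 member (1.49%; background 3.34%), and held 1 in the other 36. Set against the general fold of 1.19, the interval lay above it in 5 members (7.46%; background 11.7%) and below it in 4 (5.97%; background 12.0%). For 58 members the difference from the general promoter shift was not detectable at this depth.

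The large subunit had a median log2 ratio of 0.31 (0.12 to 0.47) over 41 promoters, with 32 above 0 and 8 below. Its median signal was 52.1 in the mutant and 43.1 in the sibling library. The small subunit had a median of 0.35 (0.12 to 0.48) over 26 promoters, with 22 above 0 and 4 below, and a median signal of 62.6 in the mutant and 50 in the sibling library. The medians of the subunits differed by 0.05, less than the width of either interval, and the order turned once the ratios were centred on the trend with signal strength (small minus large, -0.07). Symbols do not follow place in every case, since the proteins of *mrps30* and *mrps18a* lie in the large subunit of the mammalian ribosome, and MRPS36 is now counted in mammals with the 2-oxoglutarate dehydrogenase complex. With those genes placed or left out accordingly, a grouping chosen after the data were seen, the medians were 0.30 for 43 large-subunit and 0.36 for 23 small-subunit promoters.

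**Figure D2:**
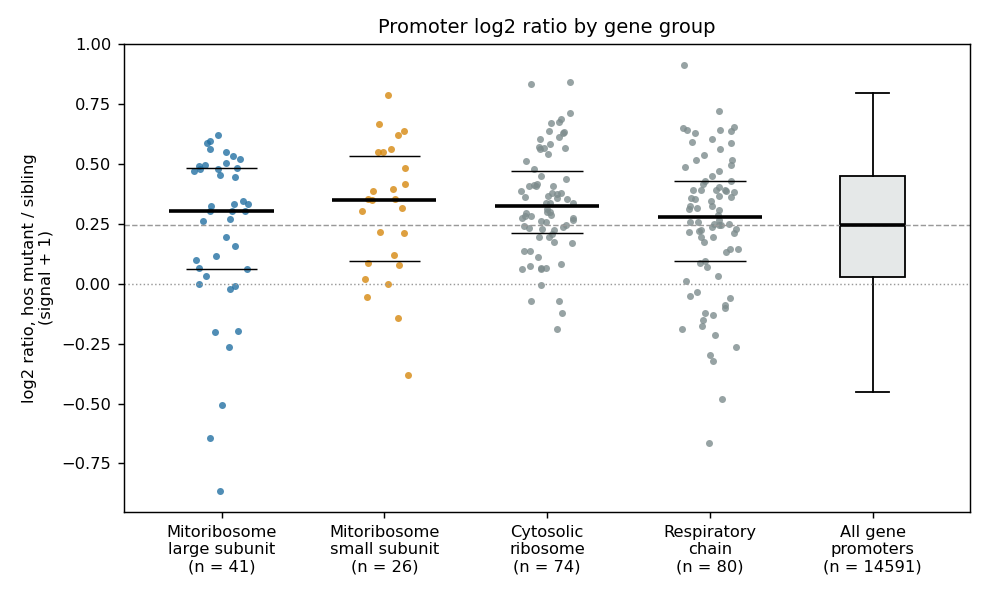
Log2 ratio of mutant over sibling promoter signal for the large subunit, the small subunit, comparison gene groups and all gene promoters. Points are genes, thick lines medians and thin lines quartiles. The box of all gene promoters has whiskers from the 5th to the 95th percentile, and the dashed line is the median of all gene promoters (0.25). The medians of both subunits (0.31 and 0.35) lie slightly above that line, inside the spread of the other groups.

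The highest ratios of the small subunit belonged to genes of both descents. *mrps24*, which codes for the relative of a bacterial protein at the messenger entry channel (danRer11 chr10:45058651-45059077, 2 bp upstream of the start), had a signal of 42.3 in the mutant and 24.1 in the sibling library. Its fold was 1.76 (1.20 to 2.56) and its log2 ratio 0.79, the highest of all members. *mrps25*, a mitochondria-specific subunit (chr8:53143043-53143425), had 51.1 in the mutant and 31.8 in the sibling library (fold 1.61, 1.13 to 2.31). *mrps14*, a protein of the small-subunit head kept from bacteria (chr2:35591216-35591619), had 69.0 in the mutant and 44.0 in the sibling library (fold 1.57, 1.17 to 2.11). *mrps31*, which is mitochondria-specific (chr5:24154026-24154432), had 80.0 in the mutant and 51.7 in the sibling library (fold 1.55, 1.18 to 2.02). The *mrps31* region is centred 229 bp upstream of the start and does not cover it. These 4 genes make up the small-subunit members past 1.5-fold (15.4%; background 13.5%). In each the interval lay above 1, although only that of *mrps24*, by a narrow margin, lay above the general fold of 1.19. *mrps26* followed at 77.9 in the mutant and 52.4 in the sibling library (fold 1.49, 1.15 to 1.93).

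The large subunit had 3 members past 1.5-fold (7.32% of its 41 promoters; background 13.5%). All 3 code for proteins kept from bacteria, as do 24 of the 41 in the classes used here. *mrpl10*, whose bacterial relative anchors the stalk that recruits translation factors (chr12:28799959-28800224), had 36.2 in the mutant and 23.2 in the sibling library (fold 1.56, 0.962 to 2.68). Its region is centred 460 bp from the *mrpl10* start, which it does not cover, and 105 bp from that of *pnpo*. *mrpl23*, a protein near the exit of the peptide tunnel (chr25:23777015-23777406), had 37.4 in the mutant and 24.4 in the sibling library (fold 1.53, 1.01 to 2.28). The *mrpl23* region is centred 300 bp upstream of the start and does not cover it. *mrpl2*, which lies close to the catalytic centre (chr13:51902857-51903791), had 138 in the mutant and 91.2 in the sibling library (fold 1.51, 1.33 to 1.73). Of these, *mrpl2* was measured best, with an estimated 575 tags in the mutant and 380 in the sibling library, and its interval lay above 1.19. The interval of *mrpl10*, on 42.9 and 27.5 tags in the mutant and the sibling library, held 1. *mrpl49*, which is mitochondria-specific, and *mrpl4*, kept from bacteria, came next. They had 34.7 and 38.1 in the mutant against 23.2 and 25.7 in the sibling library, and both intervals held 1.

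Of the 12 members with a ratio below 0, 9 were among the 23 least open, and *mrps30*, *mrpl45* and *mrps33* were not. *mrpl39*, a mitochondria-specific protein of the large subunit (chr1:580684-580911), had 18.0 in the mutant and 33.6 in the sibling library, 1.87-fold lower (1.04 to 3.55), with a log2 ratio of -0.86. That difference rests on 18.2 tags in the mutant and 34.0 tags in the sibling library. The *mrpl39* region is centred 126 bp inside the gene and does not cover its start. *mrpl35*, kept from bacteria (chr17:43517376-43517685), had 22.4 in the mutant and 35.6 in the sibling library, 1.59-fold lower (0.988 to 2.56). *mrpl17*, also kept from bacteria, had 32.6 in the mutant and 46.8 in the sibling library, 1.43-fold lower (0.924 to 2.24). Of these 3, only *mrpl39* had an interval clear of 1. *mrpl48*, with 36.2 in the mutant and 43.6 in the sibling library, and *mrpl43*, with 30 in the mutant and 34.6 in the sibling library, completed the lowest 5 of the large subunit, with *mrpl3* close behind at 30.6 in the mutant and 35.2 in the sibling library. In the small subunit the lowest was *mrps34*, with 28.9 in the mutant and 37.9 in the sibling library (1.31-fold lower, 0.828 to 2.07). *mrps30* had 53.0 in the mutant and 58.6 in the sibling library, and *mrps28* had 35.0 in the mutant and 36.4 in the sibling library. *mrps18a* had 49.1 in the mutant and 48.3 in the sibling library. The intervals of these 3 held a fold of 1. Set against the general fold of 1.19, the intervals of *mrpl39*, *mrpl35*, *mrpl17* and *mrps30* lay below it (upper limit for *mrps30* 1.15). *mrps9*, with *mrps24* one of the least open of the small subunit, had 33.2 in the mutant and 31.4 in the sibling library. *mrps33* had 96.6 in the mutant and 96.7 in the sibling library (fold 0.999, 0.814 to 1.22), the only one of the 23 most open members without a higher signal in the mutant library.

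Among the cardiomyopathy genes named above, *mrps22* had 82.0 in the mutant and 64.2 in the sibling library (fold 1.28, 0.992 to 1.63). *mrpl44*, which has a fold shared with RNase III enzymes, had 52.1 in the mutant and 49.7 in the sibling library (fold 1.05, 0.794 to 1.38). *mrpl3* had a log2 ratio of -0.20. Each of the 3 intervals held 1, so a difference between the libraries was not detectable for these promoters.

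The 2 most open promoters of each subunit had higher signal in the mutant library and narrow intervals. *mrps18b*, at the 99.4th percentile of promoter signal, had 346 in the mutant and 270 in the sibling library (fold 1.28, 1.14 to 1.45). Its region (chr19:30422094-30422488) is centred 850 bp from the *mrps18b* start, which it does not cover, and 52 bp from that of *ppp1r10*. It thus lies at the start of the neighbour rather than at that of *mrps18b*. *mrpl28* (chr15:17138211-17138935) had 210 in the mutant and 170 in the sibling library (fold 1.23, 1.1 to 1.38). *mrpl11*, at the base of the factor-binding stalk, had 142 in the mutant and 103 in the sibling library (fold 1.37, 1.18 to 1.6), and *mrps16* had 120 in the mutant and 81.4 in the sibling library (fold 1.47, 1.27 to 1.72). In all 4 the interval lay above 1, as it did in 54.1% of the 6160 gene promoters with a mean signal above 59.0. Only the interval of *mrps16* lay above the general fold of 1.19.

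More open members had higher ratios. Members were split by the mean signal of both libraries at 39.9 and 59.0. The 23 most open had a median log2 ratio of 0.39, against 0.27 for the 6160 gene promoters in that signal range. Of these 23, 22 were above 0 (95.7%, background in that range 88.0%) and *mrps33* was at 0.00. The 21 in between had a median of 0.35 against 0.24 for 3573 gene promoters, with 19 above 0 (90.5%, background in that range 76.6%). The 23 least open had a median of 0.09 against 0.18 for 4858 gene promoters. Of these 23, 13 were above 0 (56.5%, background in that range 64.3%) and 9 below. Each ratio was then centred on the trend of all regions with signal. Above 0 were 20 of the 23 most open members (87.0%), against 51.4% of gene promoters in that range. The members in between had 12 of 21 above 0 (57.1% against 55.9%). Among the least open it was 10 of 23, a share below that of their range (43.5% against 59.9%). Over all 67 members the share was 62.7% against 55.3%. Across the 66 regions the Pearson correlation of the log2 ratio with log2 mean signal was 0.32, and across all gene promoters it was 0.13. The points share the same pair of libraries, and the same signals enter both axes.

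**Figure D3:**
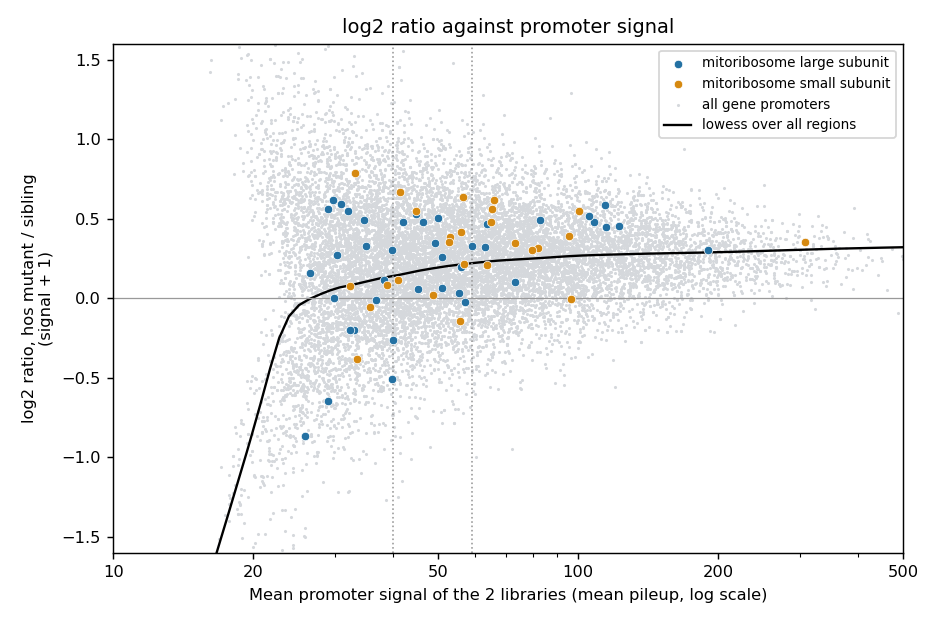
Log2 ratio of mutant over sibling promoter signal against mean signal of both libraries (log axis) for mitochondrial ribosome members (large and small subunit marked apart) over all gene promoters in grey. Dotted vertical lines stand at the limits of the signal groups (39.9 and 59.0), and the black line is the lowess trend over all regions. Members to the right gather above 0, with a median of 0.39, and members to the left scatter on both sides, with a median of 0.09.

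An interval was called in both libraries for 61 of the 67 promoters, including all 26 of the small subunit. It was called in the mutant library only for *mrpl10*, *mrpl21*, *mrpl23* and *mrpl49*, 4 of 67 beside a background of 8.9%. It was called in the sibling library only for *mrpl35* and *mrpl39*, 2 of 67 beside a background of 5.35%. All 6 belonged to the 23 least open members, and *mrpl21* differed little, with 28.0 in the mutant and 25 in the sibling library (fold 1.12, 0.592 to 2.0).

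Members of either descent, by classes taken from a list made for this report, had similar medians. The 38 promoters of proteins kept from bacteria had a median of 0.33, with 32 above 0, and the 29 of mitochondria-specific proteins had 0.30, with 22 above 0. Within the small subunit the medians were 0.39 for 14 kept and 0.28 for 12 mitochondria-specific promoters, and within the large subunit 0.31 for 24 kept and 0.30 for 17 mitochondria-specific promoters. After centring on signal the medians were 0.16 for kept and 0.05 for mitochondria-specific promoters. The list places *mrpl47* (log2 ratio 0.50) and *mrps36* (0.21) among the mitochondria-specific genes, and both placements are open to question. How the medians change with these genes placed otherwise was not tested.

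Divergent promoters were frequent among the members. In 29 of the 67 members (43.3%) another gene on the opposite strand started within 1000 bp, head to head, against 12.3% of all gene promoters. The share was 16.2% of cytosolic ribosomal protein genes and 13.8% of respiratory chain genes, a group that here includes ATP synthase genes. Other genes of mitochondrial gene expression also had high shares, at 36.7% of 30 DNA and RNA factors, 30% of 30 translation factors and synthetases and 27.3% of 22 assembly and ribosomal RNA maturation genes. This layout was found in 21 large-subunit (51.2%) and 8 small-subunit promoters (30.8%), with a median gap of 355 bp between the starts. Several partners in the 28 distinct pairs themselves act in mitochondria. How common such partners are among divergent pairs in general was not tested. *mrpl46* faced *mrps11* across 219 bp, a pair that places a large-subunit and a small-subunit gene at one region (chr7:14535732-14536356), with 88.2 in the mutant and 71.2 in the sibling library (fold 1.24, 1.03 to 1.51). *mrpl43* faced *peo1*, the Twinkle helicase of mitochondrial DNA, across 223 bp, and their region was centred nearer to *peo1*. *mrpl36* faced *ndufs6* across 246 bp and *mrpl47* faced *ndufb5* across 442 bp, both partners being subunits of respiratory complex I. The *mrpl36* region had 70.3 in the mutant and 56.0 in the sibling library (fold 1.26, 1.01 to 1.55), and the *mrpl47* region had 97.0 in the mutant and 68.5 in the sibling library (fold 1.42, 1.20 to 1.67). *mrpl40* faced *acaa2*, a thiolase of fatty acid oxidation, across 235 bp, with 49.2 in the mutant and 34.9 in the sibling library (fold 1.41, 1.07 to 1.88), and *mrps31* faced the carrier gene *slc25a15b* across 763 bp. Other partners act outside mitochondria, such as *psma2* of the proteasome beside *mrpl32*, *pfdn6* of the prefoldin chaperone beside *mrpl11*, and *cenph* of the centromere beside *mrps36*.

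The median log2 ratio was 0.32 in the 29 members with a partner and 0.32 in the 38 without. Among members with a partner 26 were above 0 (89.7%) and 3 below, and among those without 28 were above (73.7%) and 9 below. All gene promoters differed in the same direction, with 83.8% above 0 with a partner and 76.4% without. Reads at a shared region cannot be assigned to either gene. CpG islands were annotated in 5 member promoters (7.46%), against 23.1% of all gene promoters, 5.41% of cytosolic ribosomal protein genes and 10% of respiratory chain genes. The shares were 6.67% of mitochondrial DNA and RNA factors, 16.7% of translation factors and synthetases and 22.7% of assembly and ribosomal RNA maturation genes. The 5 were *mrpl2*, *mrpl38*, *mrpl52*, *mrps6* and *mrps18a*, with a median log2 ratio of 0.32. Member regions had a median length of 423 bp, against 455 bp for all gene promoters, and 59.7% were centred within 100 bp of the start, against 53.4%.

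**Figure D4:**
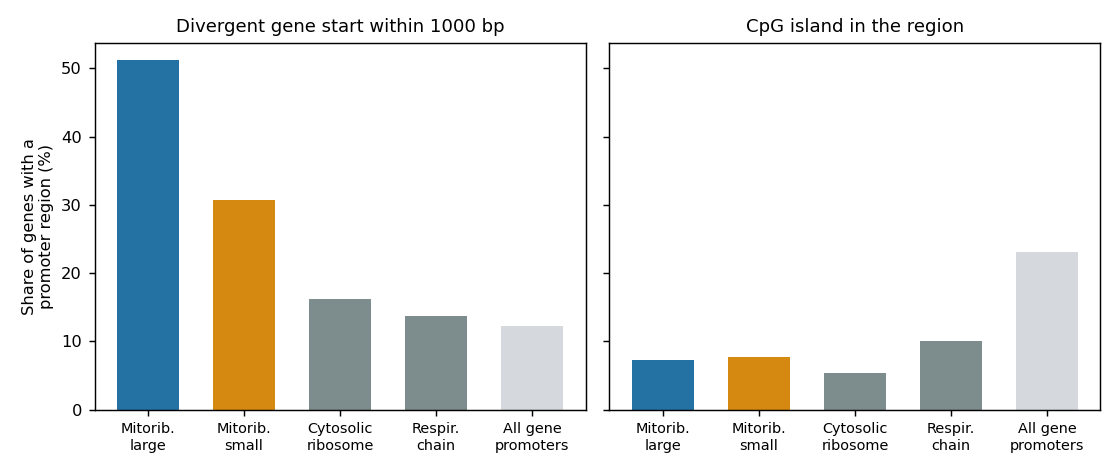
Share of promoters (percent) with a divergent partner within 1000 bp and with an annotated CpG island, for the large and the small subunit apart and comparison gene groups, bars starting at 0. Divergent partners were found in 51.2% of large-subunit and 30.8% of small-subunit promoters, against 12.3% of all gene promoters. CpG islands were found in 7.32% of large-subunit and 7.69% of small-subunit promoters, against 23.1%.

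For 3 members no region was centred within 1000 bp of the start. The nearest to the limit was *mrpl24*, with a region centred 1089 bp upstream that had 80.4 in the mutant and 61.1 in the sibling library (log2 ratio 0.39), while *mrps18b* at 850 bp was the farthest inside it. *mrpl16* had only a region 8143 bp from its start, with 34.8 in the mutant and 33.3 in the sibling library. *mrps23* had only a region 8534 bp from its start (chr15:30358265-30358911), which was one of the more altered, with 62.2 in the mutant and 35.7 in the sibling library (fold 1.74, 1.36 to 2.24).

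Regions beyond 1000 bp, assigned by the authors to a member, numbered 78 and belonged to 51 of the 70 genes. Their median log2 ratio was 0.25 (0.16 to 0.39), against 0.17 over the 44595 such pairs of gene and region in all. Of the 78, 62 were above 0 and 15 below, against 28441 above and 16066 below over all pairs. At least 1.5-fold higher signal in the mutant library was seen at 20 (25.6%; background 16.2%) and at least 1.5-fold lower signal at 3 (3.85%; background 11.7%). Past 2-fold there was none higher (background 3.62%) and 1 lower (background 4.37%). The medians were 0.31 for 28 upstream, 0.41 for 12 in-gene and 0.21 for 38 downstream regions, against 0.23 for upstream, 0.03 for in-gene and 0.23 for downstream regions of all genes. Of the 78, 44 lay at the start of another gene, so part of them measures neighbours. The 34 that did not had a median of 0.31. They included 9 of the 20 that were higher (26.5% of the 34) and 2 of the 3 that were lower (5.88%). Over all 26779 regions with no gene start within 1000 bp, with or without an assigned gene, the median was 0.06, with 16.0% higher and 18.0% lower. In-gene regions made up 12 of the 78 against 18291 of the 44595 pairs of all genes. Over all genes, 18.9% of in-gene pairs were at least 1.5-fold lower, against 6.56% of upstream and 6.69% of downstream pairs. The comparisons in this paragraph over all positions were not matched for that makeup.

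The one region past 2-fold lay 13419 bp from the *mrpl36* start (chr19:28297412-28297664), with 10.9 in the mutant and 27.2 in the sibling library, 2.51-fold lower (1.29 to 5.52). The highest ratio was at a region 19464 bp from the *mrpl39* start (chr1:600028-600243), with 38.7 in the mutant and 19.4 in the sibling library (fold 1.99, 1.09 to 3.58). At *mrpl39* the promoter and this region thus ran in opposite directions. The other regions past 1.5-fold lower were within *mrpl11*, at 15.2 in the mutant and 27.2 in the sibling library, and downstream of *mrpl12*, at 13.6 in the mutant and 24.1 in the sibling library, and both intervals held 1. A better measured case was the region 3193 bp upstream of *mrps18b* (chr19:30419790-30420106), which lay at no gene start and had 172 in the mutant and 111 in the sibling library (fold 1.56, 1.27 to 1.92). *mrpl57*, at 124 in the mutant and 86.4 in the sibling library over its promoter (fold 1.44, 1.18 to 1.78), had 2 further regions past 1.5-fold, at the starts of *ttc7b* (87.7 in the mutant and 57.4 in the sibling library) and *fam149b1* (99.0 in the mutant and 61.6 in the sibling library).

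**Figure D5:**
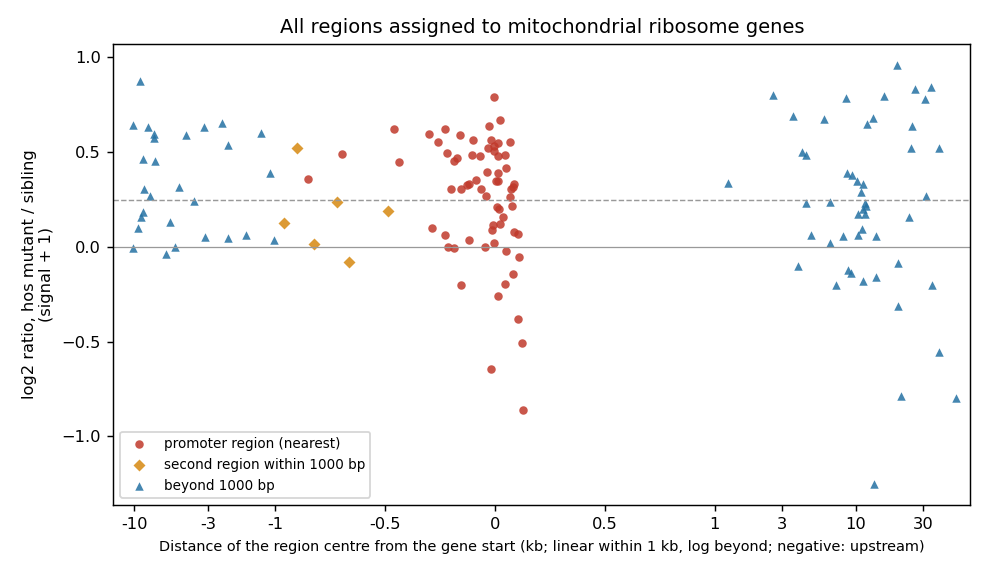
Log2 ratio of mutant over sibling signal for all regions assigned to mitochondrial ribosome members, against distance of the region centre from the gene start in kb (linear within 1 kb, log beyond; negative values upstream). The dashed line is the median of all gene promoters (0.25). Promoter regions stay between -0.86 and 0.79, and the lowest value, -1.25, is 13419 bp from the *mrpl36* start.

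Gene groups related to the mitochondrial ribosome had medians between 0.23 and 0.34. The cytosolic ribosomal protein genes had a median log2 ratio of 0.32 (0.27 to 0.38) over 74 promoters, with 69 above 0, 11 at least 1.5-fold higher (14.9%; background 13.5%) and none lower (background 3.03%), so their median stood at that of the mitochondrial ribosome. The respiratory chain genes, counted here with those of ATP synthase, code for complexes most of which take up products of mitochondrial translation. They had 0.28 (0.22 to 0.36) over 80 promoters, with 11 at least 1.5-fold higher (13.8%; background 13.5%) and 1 lower (1.25%; background 3.03%). Of these 80, *ndufs6* and *ndufb5* rest on the member regions of *mrpl36* and *mrpl47*, and they also enter the divergent and CpG island shares above. Subunits outside the symbol rule included *ict1*, the peptidyl-tRNA hydrolase built into the large subunit, with 152 in the mutant and 108 in the sibling library (fold 1.41, 1.24 to 1.61). They also included *dap3*, a GTP-binding protein of the small subunit, with 53.9 in the mutant and 42.4 in the sibling library (fold 1.27, 0.956 to 1.72). *dap3* was 1 of 5 listed subunits under other symbols, whose median was 0.34, with 4 above 0 and 1 below. The one below was *chchd1*, with 32.3 in the mutant and 34.5 in the sibling library (fold 0.935, 0.640 to 1.36). Among the 5, *aurkaip1* was at least 1.5-fold higher (20%; background 13.5%), with an interval of 0.966 to 2.99. None was at least 1.5-fold lower (background 3.03%). The gene for the decoding-centre protein *mrps12*, listed under a placeholder symbol, had 74.5 in the mutant and 57.5 in the sibling library (fold 1.3, 0.983 to 1.71).

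Among 22 promoters of assembly and ribosomal RNA maturation genes the median was 0.25, with 5 at least 1.5-fold higher (22.7%; background 13.5%) and 1 lower (4.55%; background 3.03%). *mtg2*, a GTPase of large-subunit assembly, had 59.3 in the mutant and 25.6 in the sibling library (fold 2.31, 1.59 to 3.46). *rmnd1*, a membrane protein needed for mitochondrial translation, had 27.6 in the mutant and 12.3 in the sibling library (fold 2.24, 1.06 to 4.71). *nsun4*, a ribosomal RNA methyltransferase, was the lowest, with 17.6 in the mutant and 28.1 in the sibling library (log2 ratio -0.65). *mtg2* and *rmnd1* were past the 2-fold limit that no mitochondrial ribosome member reached (9.09% of the 22; background 1.79%). None of the 22 was at least 2-fold lower (background 0.788%).

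Translation factors and synthetases had a median of 0.23 over 30 promoters, with 2 at least 1.5-fold higher (6.67%; background 13.5%) and 1 lower (3.33%; background 3.03%). Of the 30, *dtd1* (log2 ratio 0.55) was matched to the listed name *hars2* by a synonym and may not belong to this group. It also enters the shares of this group given above. The lower one was *mtfmt*, which formylates the initiator transfer RNA, with 15.6 in the mutant and 30.6 in the sibling library (log2 ratio -0.93). *tufm*, the elongation factor that delivers transfer RNA, had 48.3 in the mutant and 63.1 in the sibling library (fold 0.766, 0.575 to 1.03).

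Mitochondrial DNA and RNA factors had a median of 0.32 over 30 promoters, with 8 at least 1.5-fold higher (26.7%; background 13.5%) and none lower (background 3.03%). Of these 30, *peo1* rests on the member region of *mrpl43*, and it also enters the shares of this group given above. The highest were *trmt10c* and *elac2*, which cut transfer RNAs out of mitochondrial transcripts as a part of RNase P and as RNase Z, at log2 ratios of 1.46 and 1.1. With *trmt61b* (fold 2.03, 1.34 to 3.13), 3 of the 30 were at least 2-fold higher (10%; background 1.79%). None was at least 2-fold lower (background 0.788%). *tfam*, which packages mitochondrial DNA and starts its transcription, had 52.0 in the mutant and 31.5 in the sibling library (fold 1.65, 1.08 to 2.64). The 15 promoters of regulators of mitochondrial biogenesis had a median of 0.32, with 12 above 0 and 3 below. Among them 1 was at least 1.5-fold higher (6.67%; background 13.5%) and none lower (background 3.03%). The higher one was *ppargc1b*, a coactivator, at 128 in the mutant and 64.9 in the sibling library (fold 1.97, 1.57 to 2.47). The 3 below 0 were *esrrgb*, *esrra* and *tfeb*. The lowest, *esrrgb*, had 38.7 in the mutant and 55.6 in the sibling library (fold 0.696, 0.4996 to 0.961), with its interval below 1. *nrf1*, a factor known in mammals to bind promoters of mitochondrial genes, had 338 in the mutant and 243 in the sibling library (fold 1.39, 1.26 to 1.53).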

How the data were processed

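ATAC-seq libraries of *hos* mutant and sibling hearts, 1 each, were prepared by a commercial service. The submitters' notes name the peak caller MACS2 2.1.0 and the genome build danRer11. The aligner, duplicate handling, transposase shift and any scaling of one library to the other were not given in the sources used here, and without the scaling a common shift of all regions may stem from tissue or from depth, which cannot be told apart. The authors merged the called intervals and deposited the average and peak signal of each region and library with its gene assignments. Their own ratio columns were not used. Tags were estimated as average signal times region length over 224, the divisor behind the deposited tag column, and summed over regions to 4748190 in the mutant and 4091430 in the sibling library. Duplicated reads are not independent, so counting intervals are too narrow where they occur. Exact binomial intervals and lowess centring (span 0.2) were computed with scipy 1.17.1 and statsmodels 0.14.6 (Python 3.11.15). Interval coverage and median log2 ratios were checked on tags simulated under the binomial model that the intervals assume. That check cannot speak to duplicates or to variation between libraries, and the lowess centring was not tested on simulated data. Members and lists were chosen with earlier results of these data known. Named were, per subunit, the 5 highest and 5 lowest ratios and the 2 strongest and 2 weakest promoters, and members without a promoter region, called in 1 library, or with another region past 1.5-fold, of which some are summarised as counts. Cardiomyopathy genes, divergent pairs and genes outside the members were singled out after their values were seen. Alternatives covered centring, pseudocounts of 0.1 and 5, peak signal, a signal floor of 39.3, calls, promoter distance and choice, and the authors' gene table. Sequences were not used here.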

Additional observations from a re-analysis of the deposited data

How the results depend on the processing

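Setting the median of all promoter regions to 0 gave medians of 0.054 for the large and 0.10 for the small subunit, with 0 members at least 1.5-fold higher, 4 at least 1.5-fold lower and 1 at least 2-fold lower. Lowess centring on signal gave 0.15 for the large and 0.084 for the small subunit, and left 1 member higher and 3 lower by 1.5-fold. With a pseudocount of 5, 3 members were higher and 1 was lower by 1.5-fold. Members at least 1.5-fold lower numbered 0 above the signal floor, 0 among intervals called in both libraries and 1 in the authors' gene table, and 3 were higher when only promoter regions of 1 gene start were kept. The excess of each subunit over the median of all gene promoters stayed above 0 in every alternative run. With the median set to 0 it could not change, and all runs used the same 2 libraries. The main intervals of the medians (large 0.12 to 0.47, small 0.12 to 0.48) held the general median of 0.25. They measure spread over genes, and over genes the excess is not resolved. Whether it would recur in other libraries could not be tested with 1 library per genotype. For the 38 named members with a promoter region, over 12 alternatives, 16 values moved beyond their counting interval and 407 did not. Alternatives of distance, signal floor, calls and 1 gene start only kept or dropped promoters. A kept value could not change there, so part of the 407 was fixed in advance. Many of the intervals were also wide. Leaving out a replicate was not possible with 1 library per genotype. No paired analysis was possible because each genotype had 1 library. Depth limits weak promoters most, as at *mrpl21*, whose fold of 1.12 has an interval of 0.592 to 2.0.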
